A study of Homo sapiens with 132 samples.

Results

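Untreated Hs746T cells were compared with untreated MKN1 cells across all genes. Both are established gastric cancer cell lines, and in the study they stood for a line without and a line with a response to cetuximab, an antibody against the EGF receptor EGFR. The members were the 12 libraries of these lines labelled as untreated, 6 of MKN1 and 6 of Hs746T, out of 132 libraries in the series. Each line had 3 replicates harvested at 4 h and 3 at 24 h. MKN1 grew in RPMI and Hs746T in DMEM medium, each with fetal calf serum and antibiotics. The effect of the line and that of the medium cannot be told apart. The labels name replicates by number and do not say whether they were separate cultures, so the p-values measure the spread between these libraries, which may be partly technical. MKN1 is known as a line from an adenosquamous gastric carcinoma, and Hs746T as one from a muscle metastasis with extra copies of MET, the gene of the receptor of hepatocyte growth factor. Neither histology nor copy number was measured here.

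EGFR, ERBB2, ERBB3 and ERBB4 are receptor tyrosine kinases that pair after ligands such as EGF, epiregulin or neuregulins bind, and pass the signal through RAS and MAP kinases and through PI3K and AKT. Epithelial cells hold together by tight junctions (claudins), desmosomes (plakophilins, desmoplakin, plakoglobin) and adherens junctions (E-cadherin), with keratins as their intermediate filaments. Mesenchymal cells use vimentin, N-cadherin and fibrillar collagens instead, under transcription factors of the ZEB, SNAI, TWIST and PRRX families. Carcinoma cells can lie anywhere between these states.

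The 12 libraries held 25832557 to 60661089 counts on genes, 98.3% to 98.8% of them on protein-coding genes. Levels are given as CPM, counts relative to the library size after TMM scaling, as lowest, median and highest of the 6 libraries of a line. A count of 3, taken as the smallest level that a library can show, was 0.0495 to 0.116 CPM, and this limit covers counting error only. Of 19661 protein-coding genes, 1957 (9.95%) were listed at 0 in all 132 libraries, among them JUNB, TIMP1, CDK2 and CD68, which most cells express. Of those genes, 85.6% overlapped another annotated gene, against 61.6% of the other protein-coding genes. A gene listed at 0 in every library was therefore not read as silent, and 76 of the 1004 genes on the lists described below were of this kind. The sample numbers in the labels run in 2 series, the first with 3 libraries of Hs746T and 4 of MKN1, the second with 3 and 2. Very low levels moved with this series in Hs746T. Over 111 genes with at least 50 CPM in MKN1 and under 1% of that in Hs746T, the median level in Hs746T was 0.456%, 0.491% and 0.824% of the MKN1 mean in the first series and 0.141%, 0.159% and 0.188% in the second. Over 29 genes of the opposite kind, the 4 MKN1 libraries of the first series were at 0.214% to 0.851% of the Hs746T mean and the 2 of the second at 0.128% and 0.256%. The part of the series in these residual levels was not tested. Differences beyond about 8 on the log2 scale therefore depend on these residual levels, and some smaller ones moved as well. With the libraries of the second series alone, the difference went from -7.50 to -8.81 for CLDN3 and from -7.37 to -8.88 for ELF3. No order is read among differences of this size.

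**Figure D1:**
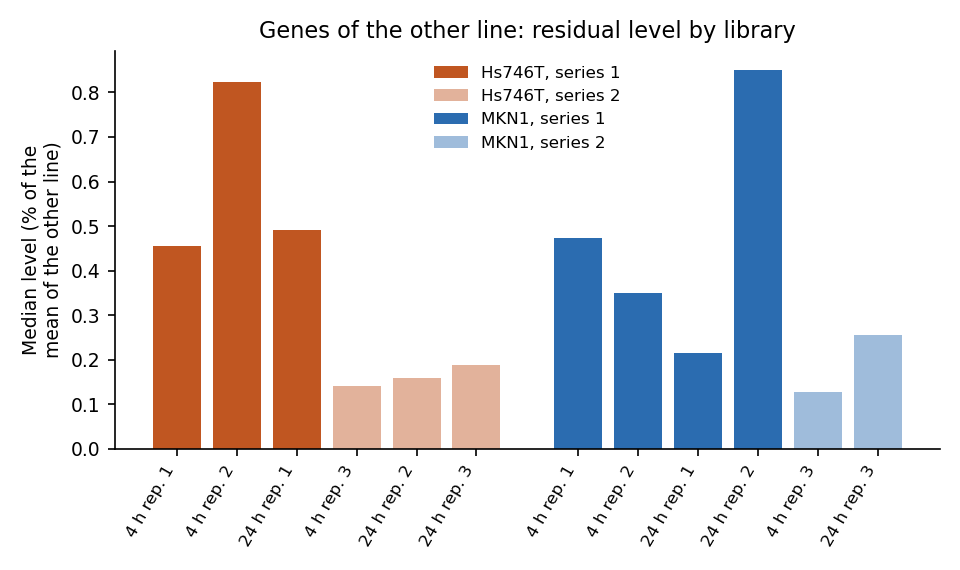
Residual level, in % of the mean of the other line, of genes that were high in one line only, for each untreated library (bars: median over 111 genes in Hs746T and 29 in MKN1, dark for the first and pale for the second number series). The 3 Hs746T libraries of the second series lay at 0.141% to 0.188%, all below those of the first.

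The first question was how far the untreated lines differed. A gene was called higher or lower in Hs746T at an adjusted p below 0.05 (edgeR) and a log2FC above 1 or below -1, the criteria of the study, with time as covariate. Of 18768 tested genes, 9018 (48.0%) were called, 4234 (22.6%) higher and 4784 (25.5%) lower in Hs746T. The counts in the gene lists below are to be read against these shares. A list with calls in both directions near them does not differ from other genes. The median log2FC of all tested genes was -0.02, and that of the called genes was 2.24 in size. Of the called genes, 396 were higher and 1272 lower by more than 5 on the log2 scale. With the libraries of the second number series alone, these counts were 489 and 1354. The 6 levels of MKN1 and the 6 of Hs746T did not overlap in 11806 genes (62.9%), so the absence of overlap alone was common. Pearson's r of log2 CPM across genes was at least 0.98 between libraries of one line and 0.77 to 0.813 between the lines.

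The EGFR system came first, since the lines were chosen for their response to its inhibitors. EGFR had 236, 353 and 497 CPM in MKN1 and 254, 273 and 292 CPM in Hs746T. The ranges overlapped, and the log2FC was -0.33 (SE 0.14, adjusted p = 0.0398), under the limit for a call. The difference was -0.75 at 4 h (SE 0.10, adjusted p = 1.51e-05) and 0.10 at 24 h (SE 0.10, adjusted p = 0.372). ERBB2, the trastuzumab target, was low in both lines, with 115, 154 and 179 CPM in MKN1 and 77.1, 84.2 and 93.2 CPM in Hs746T, against medians of 3776 CPM in MKN7 and 12109.6 CPM in NCI-N87. Its ranges did not overlap, and the log2FC of -0.83 (SE 0.09, adjusted p = 7.45e-07) was not called. ERBB3, a receptor with a nearly inactive kinase that binds neuregulins, was the single called receptor of the 4. It had 3.29, 6.25 and 9.35 CPM in MKN1 and 0.702, 0.89 and 1.18 CPM in Hs746T, with a log2FC of -2.70 (SE 0.19, adjusted p = 7.88e-09).

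The ligands went in both directions. Of 10 tested genes of EGFR ligands and neuregulins, 3 were called higher and 2 lower, with a median log2FC of 0.48, a share near the 48.0% called among all tested genes. EREG, the gene of epiregulin, had 24.3, 78.4 and 138 CPM in MKN1 and 2.18, 2.64 and 4.65 CPM in Hs746T. All MKN1 libraries lay above all Hs746T libraries, and the log2FC was -4.53 (SE 0.38, adjusted p = 5.17e-08). NRG1, the gene of neuregulin 1, a ligand of ERBB3 and ERBB4, ran the other way. It had 0.624, 1.29 and 2.15 CPM in MKN1 and 63.8, 67.5 and 80.1 CPM in Hs746T (log2FC 5.78, SE 0.22, adjusted p = 1.01e-11). Values were 2.18 for EGF, 2.04 for NRG2 and -1.78 for TGFA, all called. AREG and HBEGF were not called, with -0.75 and 0.26. The value of AREG depended on the libraries used, since it was called lower in the 4 h libraries alone (-1.50, adjusted p = 4.24e-04, edgeR) and in the second number series alone (-1.37), against 0.09 in the 24 h libraries. Among 14 genes of EGFR trafficking and feedback, 2 were called higher and 1 lower, with a median of 0.09. ERRFI1, which encodes the feedback inhibitor MIG6 that binds the EGFR kinase, had 50.7, 64.9 and 86.1 CPM in MKN1 and 347, 372 and 379.5 CPM in Hs746T (log2FC 2.47, SE 0.11). CBL, a ubiquitin ligase of activated EGFR, was called higher with 1.51 and SOCS5 lower with -1.46.

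**Figure D2:**
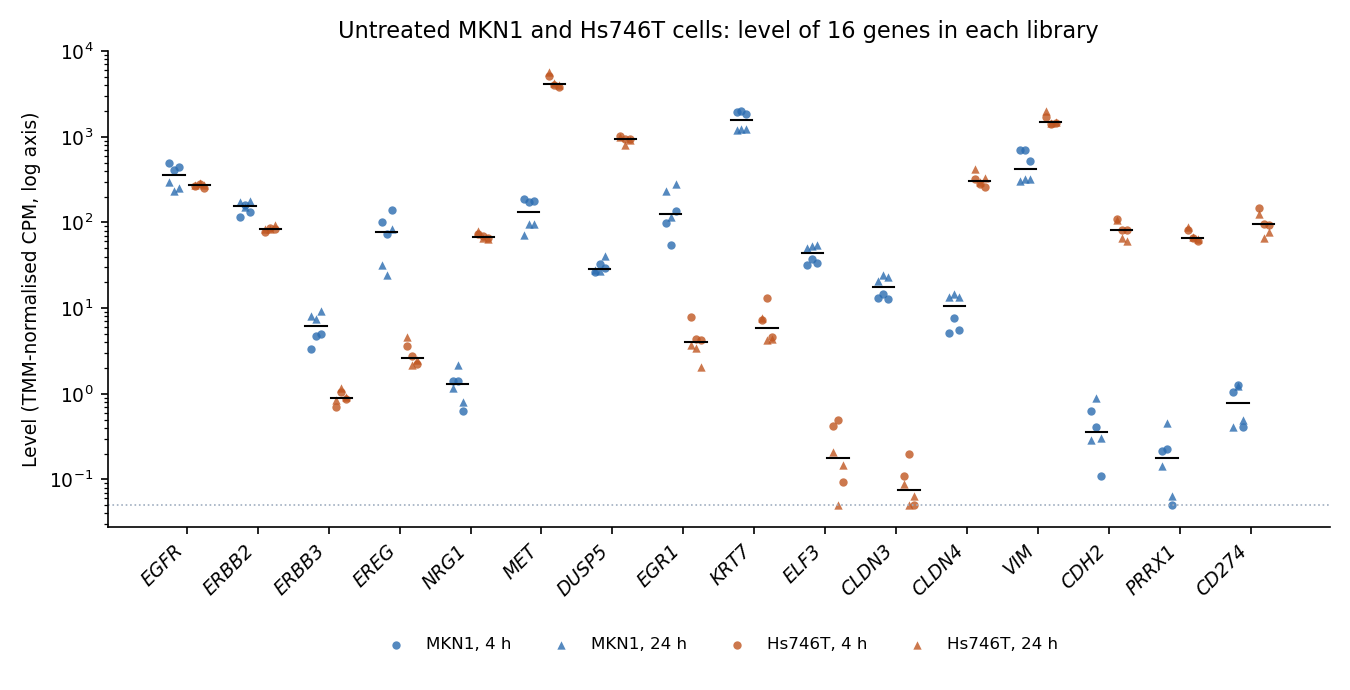
Level of 16 genes in each of the 12 untreated libraries, in CPM on a log axis (blue: MKN1, orange: Hs746T, circles: 4 h, triangles: 24 h, black line: median of 6, values under the dotted line drawn on it). EGFR was the only one of them whose ranges overlapped, while MET, NRG1, PRRX1 and CD274 lay higher and KRT7, ELF3 and EREG lower in all Hs746T libraries.

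Of 42 other receptor tyrosine kinases tested, 13 were called higher and 17 lower, with a median log2FC of -0.03. MET had 71, 134 and 188 CPM in MKN1 and 3818, 4148 and 5652 CPM in Hs746T, against medians of 175 in MKN7 and 329 in NCI-N87. The log2FC between Hs746T and MKN1 was 5.17 (SE 0.23, adjusted p = 3.51e-11), and 4.97 with the libraries of the second series alone. MST1R, the receptor most closely related to MET, was called higher too, with medians of 3.26 and 14.8 CPM. EPHA7, a receptor of ephrins, had 0, 0.0529 and 0.23 CPM in MKN1 and 18.3, 21.4 and 29.5 CPM in Hs746T. EPHA3, TIE1 and ROS1 were called higher as well, from medians under 0.2 CPM in MKN1 to 14.6, 10.8 and 5.66 CPM. In the other direction, FGFR3 had 30.7, 37.8 and 48.3 CPM in MKN1 and 0, 0.13 and 0.33 CPM in Hs746T. FGFR2 and FGFR4, receptors of the same family, were called lower with log2FC of -5.49 and -5.34, whereas FGFR1 was called higher with 1.09. EPHB6, an ephrin receptor without kinase activity, was at a median of 169 CPM in MKN1 and 0.949 CPM in Hs746T. AXL and EPHA2, highly expressed in both lines, had 0.15 and -0.46 and were not called.

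The ligands of these receptors held 9 genes called higher and 9 called lower of 26 tested, with a median of -0.03. IGF2, the gene of insulin-like growth factor 2, had 1359, 2114 and 2363 CPM in MKN1. In Hs746T it had 6.33, 8.41 and 12.3 CPM in the libraries of the first series and 1.01 to 1.11 CPM in those of the second. The log2FC was -8.60 (SE 0.68) over all libraries and -11.12 with the second series alone, so its size depended on the libraries while its direction did not. FGF5 showed the opposite order, with 0.0216, 0.0901 and 0.334 CPM in MKN1 and 26.1, 30.1 and 41.6 CPM in Hs746T. PDGFB was called lower with medians of 17.4 and 0.0865 CPM, and VEGFC and PROS1 higher with log2FC of 3.94 and 3.43. HGF, the ligand of MET, was at 0.594 and 1.67 CPM in the median (log2FC 1.58, called).

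The kinases and factors whose phosphorylation the study measured mostly stayed within the limit of a call. Of 14 tested genes, 2 were called higher (RPS6KB1 with 1.12 and MAPK12 with 1.17) and 2 lower, with a median of -0.07. The lower ones were STAT3 and STAT5A, transcription factors downstream of cytokine and growth factor receptors. STAT3 had 407, 469 and 504 CPM in MKN1 and 94.2, 105 and 124 CPM in Hs746T (log2FC -2.11, SE 0.08), and STAT5A had a log2FC of -3.36. Among 39 RAS-MAPK and PI3K components, 7 were called higher and 8 lower, with a median of 0.04. SHC3 and SHC2, adaptor proteins of one family, differed in opposite directions. SHC3 had 3.59, 4.97 and 5.97 CPM in MKN1 and 166, 184 and 211 CPM in Hs746T (log2FC 5.30), and SHC2 had 9.82, 12.1 and 17.3 against 0.037, 0.102 and 0.165 CPM (log2FC -6.77). Neither range overlapped. GAB1, a docking protein of MET and other receptor tyrosine kinases, was called higher with 2.65.

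Of 29 tested target and feedback genes of the MAP kinases, 9 were called higher and 8 lower, with a median of 0.50. Among all tested genes, 22.6% were called higher and 25.5% lower, so calls in both directions are no trait of this list. DUSP1, FOSB and JUNB were listed at 0 in every library. DUSP5, a phosphatase that inactivates ERK in the nucleus, had 26.1, 28.8 and 41 CPM in MKN1 and 798, 952 and 1013 CPM in Hs746T (log2FC 4.93, SE 0.13, adjusted p = 4.30e-13). FOSL1 and JUN, which encode subunits of the transcription factor AP-1, were higher as well. FOSL1 had 68.9, 258 and 426 CPM in MKN1 and 829, 1315 and 1486 CPM in Hs746T (log2FC 2.65, SE 0.36), and JUN had a log2FC of 2.68. EGR1, an immediate early transcription factor, showed the reverse with 54.5, 127 and 283 CPM in MKN1 and 2.07, 3.97 and 7.98 CPM in Hs746T (log2FC -5.07, SE 0.43). EGR3, DUSP8, DUSP2 and FOS were called lower too, with -6.07, -5.18, -4.43 and -1.98. DUSP6 and CCND1 were not called, with 0.53 and 0.89.

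Of the 14 genes that the study selected for motility in MKN1 cells, 9 were called higher in Hs746T and 1 lower, with a median of 1.52. The study chose this list on libraries of this series, so it is no independent evidence of a direction. HAS2, which makes hyaluronan, had 0.143, 0.328 and 1 CPM in MKN1 and 11.3, 13.9 and 34.5 CPM in Hs746T. ETS1, CXCL1, SPRY2 and ITGA2 followed with log2FC of 2.89, 2.84, 2.70 and 2.56. F3, the gene of tissue factor, was the called lower one with -1.88, and the other 4 were not called.

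Epithelial genes were largely lower in Hs746T. All 6 tested simple epithelial keratins were called lower, with a median log2FC of -4.76. KRT7 had 1201, 1555 and 1990.4 CPM in MKN1 and 4.22, 5.93 and 13.2 CPM in Hs746T (log2FC -7.83, SE 0.27). KRT8 had 10181, 11681 and 13458 CPM in MKN1 and 307, 336 and 414 CPM in Hs746T, so it was lower but clearly present. KRT18 and KRT19 had log2FC of -4.44 and -7.18. The squamous list, of keratins and other genes of stratified epithelia, had 17 of 24 tested genes called lower and 3 higher, with a median of -5.11. Its SPRR genes were not tested. KRT5, the keratin of basal cells of stratified epithelia, had 35, 69.4 and 136 CPM in MKN1 and 0, 0.0978 and 0.495 CPM in Hs746T. KRT17, TRIM29 and SERPINB5 fell together with it, from medians of 440, 270.2 and 174 CPM in MKN1 to 2.47, 1.11 and 0.48 CPM in Hs746T. KRT6A shares reads with near-identical copies and is uncertain. IVL, S100A2 and COL17A1 were called higher, with 6.43, 1.02 and 1.69. LAMA3, a basement membrane laminin, was not called, with -0.58.

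Of 38 tested epithelial junction and polarity genes, 22 were called lower and 5 higher, with a median of -1.79. CLDN3, a tight junction claudin, had 12.8, 17.5 and 24.2 CPM in MKN1 and 0, 0.0758 and 0.198 CPM in Hs746T (log2FC -7.50, SE 0.30). PKP2, a desmosomal plakophilin, had 55.7, 73.1 and 99.4 CPM in MKN1 and 0.192, 0.333 and 0.72 CPM in Hs746T, and JUP, the gene of plakoglobin, 153, 189 and 203 against 1.26, 2.28 and 3.29 CPM. None of these ranges overlapped. The claudin CLDN4 ran against its list. It had 5.17, 10.5 and 14.5 CPM in MKN1 and 262, 308 and 419 CPM in Hs746T, a log2FC of 5.09 (SE 0.19), and DSC2, DSG2 and CLDN7 were called higher with 3.26, 1.76 and 1.66. CDH1, the gene of E-cadherin, was low in both lines, with 1.02, 2.26 and 3.14 CPM in MKN1 and 0.577, 0.767 and 1.09 CPM in Hs746T, and its ranges overlapped (log2FC -1.27, adjusted p = 1.85e-04). EPCAM, which marks epithelial cells, had 17.3, 26.4 and 27.9 CPM in MKN1 and 18, 35.2 and 36.8 CPM in Hs746T and was not called (log2FC 0.33, adjusted p = 0.132). TJP1 was not called either, with 0.61.

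Of 12 tested epithelial transcription and splicing regulators, 10 were called lower and 0 higher, with a median of -2.28. ELF3, an epithelial ETS factor, had 31.5, 44 and 54.2 CPM in MKN1 and 0, 0.18 and 0.495 CPM in Hs746T. TFAP2C had 22.4, 30.6 and 35 CPM in MKN1 and 0.0213, 0.0809 and 0.264 CPM in Hs746T. OVOL2, ESRP2 and GRHL1, a repressor of mesenchymal genes, a splicing regulator and a grainyhead factor, had log2FC of -5.70, -4.08 and -2.84. GRHL2 was already at 0.42 CPM in MKN1 (log2FC -1.19, called), and KLF5 was not called, with 0.32.

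The promoters of 3 of the genes called lower are shown because ZEB and SNAI factors bind E-box letters in promoters of epithelial genes. The stretches run from 250 bases before to 50 after the start site, from RefSeq on GRCh38.p14. CLDN3 lies at chr7:73770221-73770520 (minus strand), ELF3 at chr1:202010337-202010636 (plus strand) and JUP at chr17:41786662-41786961 (minus strand). Capitals mark the letters CACCTG on either strand.
CLDN3: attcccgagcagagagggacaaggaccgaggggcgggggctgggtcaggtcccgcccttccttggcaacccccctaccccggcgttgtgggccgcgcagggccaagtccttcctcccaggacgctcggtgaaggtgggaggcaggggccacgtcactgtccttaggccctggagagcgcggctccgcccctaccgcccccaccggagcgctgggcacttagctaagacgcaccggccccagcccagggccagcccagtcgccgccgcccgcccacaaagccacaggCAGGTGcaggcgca
ELF3: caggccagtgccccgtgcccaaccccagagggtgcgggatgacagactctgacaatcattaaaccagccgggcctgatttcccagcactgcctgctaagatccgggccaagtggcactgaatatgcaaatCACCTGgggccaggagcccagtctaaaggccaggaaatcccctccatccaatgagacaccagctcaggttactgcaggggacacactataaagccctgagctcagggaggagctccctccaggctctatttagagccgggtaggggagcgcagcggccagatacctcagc
JUP: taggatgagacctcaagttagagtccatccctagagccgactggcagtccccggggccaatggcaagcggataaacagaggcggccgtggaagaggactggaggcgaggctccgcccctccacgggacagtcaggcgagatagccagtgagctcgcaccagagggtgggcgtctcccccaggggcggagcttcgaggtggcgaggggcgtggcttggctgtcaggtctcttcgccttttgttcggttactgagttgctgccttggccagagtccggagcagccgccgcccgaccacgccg

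In CLDN3 the letters began at base 37 after the start and in ELF3 at base 120 before it, and JUP held none. The letters AACCGGTT, searched for grainyhead factors, and TGANTCA, searched for AP-1, were in none of these 3. CACCTG on either strand occurred in 20.6% of 27305 promoters, AACCGGTT in 0.117% and TGANTCA in 7.76%. Only 15 of the 32 called lower members of both epithelial lists had an entry, so a comparison of shares was void. Of the 15, 7 held CACCTG, and so did 2 of the 4 with an entry among the members called higher. The promoter of LSR, called lower with -5.66 and not shown, held none of these letters. A match describes letters in this window and is not a site.

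Mesenchymal genes did not move as one group. Of 14 tested mesenchymal transcription factors, 5 were called higher and 3 lower, with a median of 0.20. PRRX1 had 0, 0.179 and 0.46 CPM in MKN1 and 60.3, 66.4 and 89.1 CPM in Hs746T (log2FC 8.54, SE 0.32), and TWIST2 0.0538, 0.154 and 0.251 against 33, 39.7 and 43.9 CPM. SNAI2 and ZEB2 were called higher with 3.98 and 3.88, from medians of 9.66 and 1.75 CPM in MKN1. ZEB1 had 30.3, 39.7 and 45.6 CPM in MKN1 and 49, 55.9 and 77 CPM in Hs746T, without overlap and without a call (log2FC 0.65). The paralog PRRX2 showed the mirror image of PRRX1, with 14.6, 18.1 and 21 CPM in MKN1 and 0, 0.0279 and 0.066 CPM in Hs746T, near or under the level of 3 counts.

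Of 26 mesenchymal cytoskeleton, adhesion and surface genes, 10 were called higher and 9 lower, with a median of 0.37. CDH2, the gene of N-cadherin, had 0.109, 0.353 and 0.899 CPM in MKN1 and 60.5, 81.6 and 111 CPM in Hs746T (log2FC 7.55). VIM was well expressed in both lines, with 303, 419 and 709.7 CPM in MKN1 and 1404, 1477 and 2005 CPM in Hs746T (log2FC 1.82, SE 0.19, adjusted p = 6.44e-07). NT5E, FAP, CDH11 and NES were called higher with 4.53, 3.21, 2.21 and 2.12. ANPEP, L1CAM, PDPN and CDH13, surface proteins that are often counted as mesenchymal, were called lower with -7.82, -7.62, -7.54 and -6.69. CD44 was called lower with -1.11. THY1 and MYL9 were listed at 0 in every library.

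The extracellular matrix list held more lower than higher genes, 26 and 14 of 45, with a median of -1.51. COL1A2 and COL1A1, the chains of type I collagen, were both higher. COL1A2 had 0.0815, 0.281 and 0.899 CPM in MKN1 and 156, 175 and 189.8 CPM in Hs746T, and COL1A1 8.92, 14.7 and 14.8 against 492, 529.9 and 682 CPM. LOX, which crosslinks collagen, THBS1 and FN1 were called higher with 4.29, 4.68 and 1.88. The chains of other collagens were divided. COL5A1, COL6A1 and COL18A1 were called lower with log2FC of -3.43, -2.64 and -5.84. COL13A1, COL4A5, COL4A6 and COL8A1 were called higher with 5.72, 1.99, 1.99 and 1.79. SPARC was called lower with -1.73. Among 20 integrin subunits, 4 were called higher and 9 lower. ITGB4, an integrin of hemidesmosomes, had 70, 100.2 and 157 CPM in MKN1 and 0.444, 0.62 and 1.34 CPM in Hs746T and no overlap. Of 24 matrix proteases and inhibitors, 8 were called higher and 9 lower. MMP14, a membrane-bound collagenase, had 16.2, 24.6 and 40.8 CPM in MKN1 and 1808, 1963 and 2133 CPM in Hs746T (log2FC 6.30, SE 0.20). KLK10, KLK6 and MMP2 were called lower with -8.19, -7.98 and -7.91.

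The markers of both states were present side by side. The summed level of 10 epithelial markers was 16959.7 to 21661 CPM in MKN1 and 805 to 984 CPM in Hs746T, mostly from keratins. That of the 10 mesenchymal markers was 1855 to 3414 CPM in MKN1 and 4732 to 6555 CPM in Hs746T. Markers of lymphocytes summed to at most 0.773 CPM, those of red cells to at most 2.57 CPM and those of myeloid cells to at most 8.21 CPM in any library, with CD3D, MS4A1, CD68 and FCGR3A at 0. CD68 and FCGR3A were at 0 in the whole series and check nothing. The 7 endothelial markers summed to 10.8 to 32 CPM in MKN1 and 101 to 228 CPM in Hs746T, of which PECAM1 made up medians of 12.6 and 169 CPM (log2FC 3.69), while CDH5 and KDR were too low to test.

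**Figure D3:**
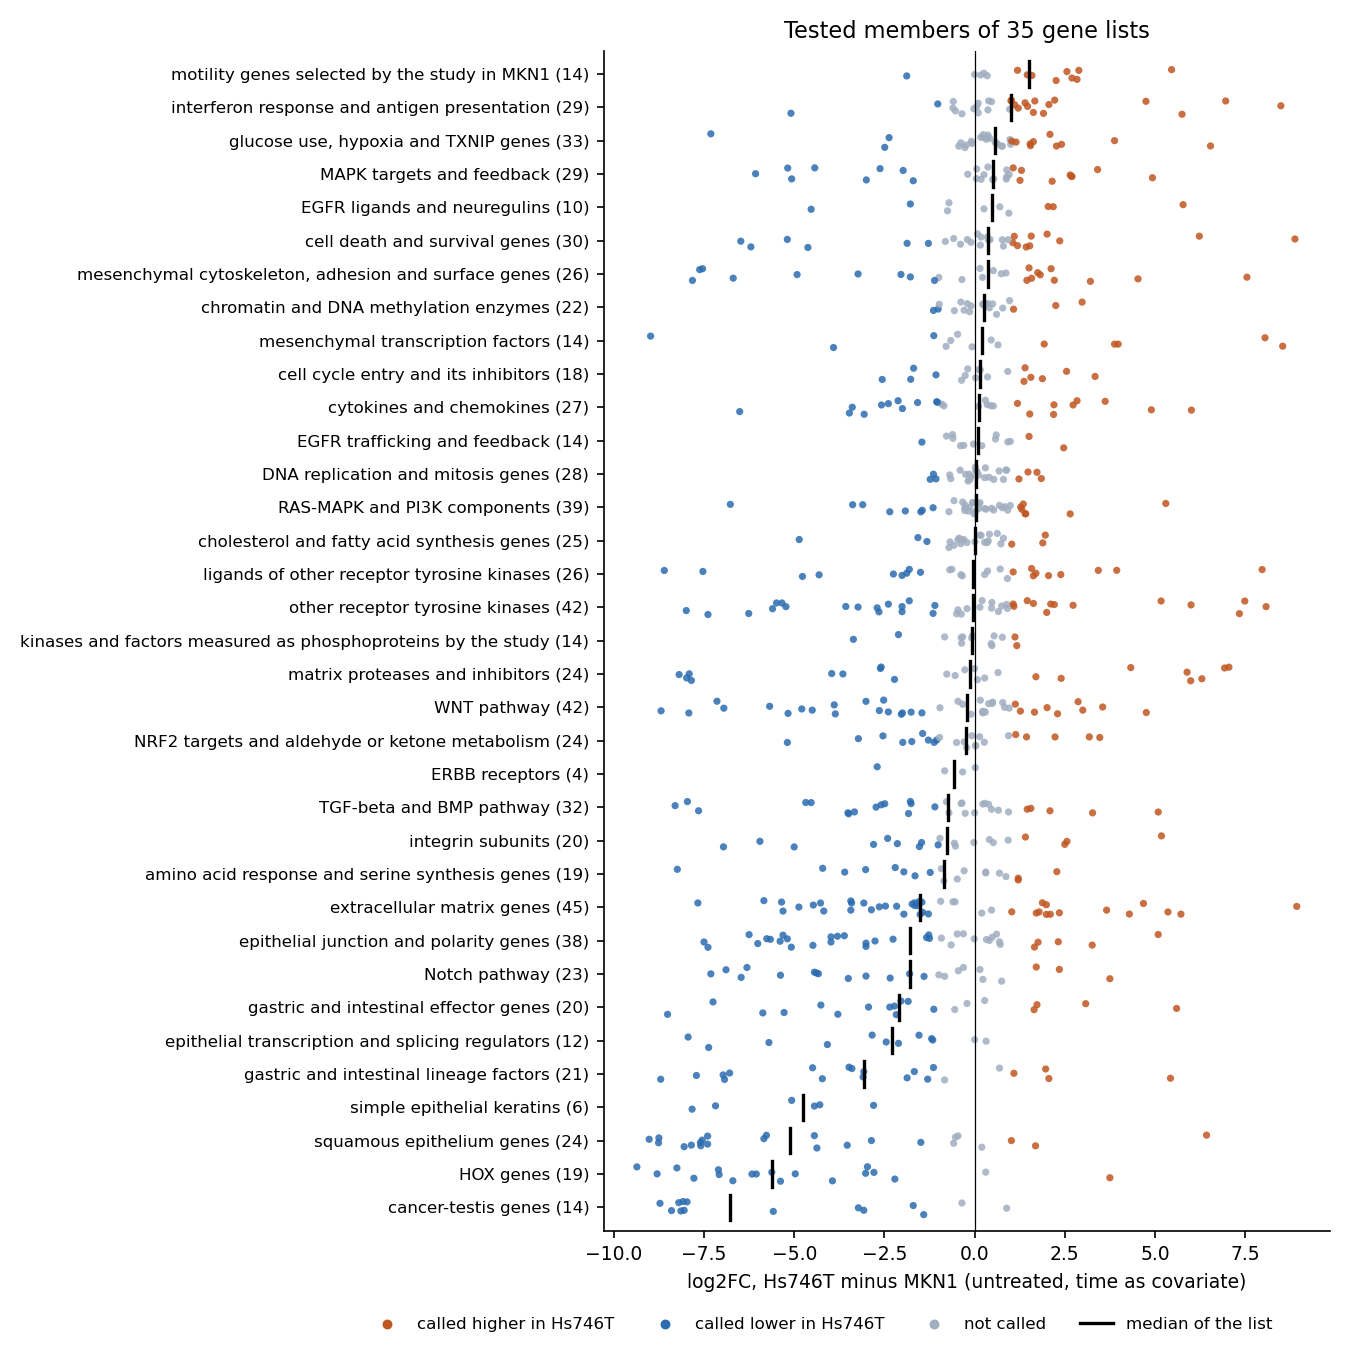
Log2FC of the tested members of the gene lists, Hs746T minus MKN1, with 1 point per gene (orange: called higher, blue: called lower, grey: not called, black line: median of the list, number of tested members in parentheses). Squamous epithelium genes, HOX genes and cancer-testis genes lay lowest, with medians of -5.11, -5.62 and -6.78, and interferon genes and the motility list highest, with 1.01 and 1.52.

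Genes of gastric and intestinal identity were mostly lower in Hs746T. Of 21 tested lineage factors, 15 were called lower and 4 higher, with a median of -3.07. NKX6-3, a homeobox factor of the stomach, had medians of 35.7 CPM in MKN1 and 0.0176 CPM in Hs746T, the latter under the level of 3 counts. CDX2, the main factor of intestinal identity, had 10.2, 13.4 and 15.9 CPM in MKN1 and 0, 0.0495 and 0.132 CPM in Hs746T. GATA6 stayed present in both, with 16.1, 28.2 and 39.6 against 5.48, 6.99 and 9.62 CPM. HNF4G was the clearest exception, with 0.274, 0.462 and 0.754 CPM in MKN1 and 19.8, 21.1 and 25.8 CPM in Hs746T (log2FC 5.43). Of 20 effector genes such as mucins and trefoil factors, 13 were called lower and 4 higher, with MUC16 at -7.25 and MUC5AC at -5.87 and with MUC13 at 5.60. The position genes of the HOX clusters were lower in 17 of 19 tested, with a median of -5.62. HOXC13 had 37.4, 43.6 and 44.7 CPM in MKN1 and 0, 0.0689 and 0.396 CPM in Hs746T. HOXD12 was the 1 called higher, and 16 further HOX genes were listed at 0 in every library. Of 14 cancer-testis genes, which normal tissue outside the germ line hardly uses, 12 were called lower and 0 higher. MAGEA4 had medians of 32.3 and 0.00923 CPM and IGF2BP1 of 107 and 0.303 CPM, and MAGEA3 and MAGEA6 share reads and are uncertain.

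Interferon response and antigen presentation genes were the other way round, with 15 called higher and 2 lower of 29 tested and a median of 1.01. IFI44L had 0.0647, 0.18 and 0.46 CPM in MKN1 and 57.6, 80.5 and 89.6 CPM in Hs746T. CD274, the gene of PD-L1, had 0.407, 0.776 and 1.26 CPM in MKN1 and 65.7, 94.8 and 149.5 CPM in Hs746T (log2FC 6.96, SE 0.31, adjusted p = 3.83e-11). IFI27 and IFI44 had log2FC of 5.75 and 4.75. MX2, an antiviral effector of the same response, was lower, with 99, 106 and 117 CPM in MKN1 and 1.38, 2.02 and 6.39 CPM in Hs746T. IFIT1, IRF9, HLA-B and TAP1 were among 10 members listed at 0 in every library. Of 27 cytokines and chemokines, 9 were called higher and 11 lower, so both directions occurred, as among all tested genes. CCL20, IL24 and IL1A were called higher with 6.01, 4.90 and 3.62, and CXCL12, CCL2 and IL32 lower with -6.51, -3.47 and -3.39.

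Of 32 genes on the TGF-beta and BMP list, 15 were called lower and 5 higher, with a median of -0.75. The list held TGFA, an EGFR ligand described above, and without it 14 of 31 were called lower, with a median of -0.71. BMP7 had 57.9, 72.4 and 89.8 CPM in MKN1 and 0, 0.234 and 0.445 CPM in Hs746T, and BMP4 had a log2FC of -4.68. The BMP target ID1 had 166, 261 and 428 CPM in MKN1 and 16.2, 22.5 and 34.8 CPM in Hs746T, and SMAD6 and SMAD7, feedback inhibitors, had -4.53 and -2.59. The secreted antagonists differed from each other, with GREM1 at -7.96 and NOG and FST at 3.27 and 5.09. SMAD2, SMAD3 and SMAD4, which carry the signal to the nucleus, were not called, with -0.26, 0.23 and 0.29. Of 42 WNT pathway genes, 18 were called lower and 9 higher, with NKD2, WNT6 and WNT3A at -8.69, -7.92 and -7.14. CTNNB1, the gene of beta-catenin, was not called, with 0.23. Of 23 Notch pathway genes, 13 were called lower and 3 higher, with DLL3 and DLL1 at -7.31 and -6.89 and HEY1 at 3.75, while the receptors NOTCH1 and NOTCH2 were not called, with 0.15 and 0.23.

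Lists of growth and metabolic genes had medians on both sides of that of all genes. DNA replication and mitosis genes had 4 of 28 called higher and 3 lower (median 0.05). Cholesterol and fatty acid synthesis genes had 3 of 25 in each direction (0.01), and chromatin enzymes 3 of 22 higher and 2 lower (0.26). Each of these lists lay under the shares of all tested genes, 22.6% higher and 25.5% lower. Of 30 cell death genes, 10 were called higher and 6 lower, with BCL2A1 at 6.23, BOK at -6.48 and HRK at -6.20. Glucose and hypoxia genes had 10 of 33 called higher and 3 lower (median 0.57). BNIP3, a mitochondrial protein induced by hypoxia, had 1.34, 2.08 and 2.3 CPM in MKN1 and 144, 182 and 203 CPM in Hs746T. Amino acid genes had 8 of 19 called lower and 3 higher (median -0.85). PSAT1, an enzyme of serine synthesis, had 201, 243 and 288 CPM in MKN1 and 0.259, 0.586 and 1.83 CPM in Hs746T, and PHGDH, the enzyme before it, and SLC7A5 had -3.02 and -4.21.

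The next question was which genes were present in one line and nearly missing in the other. Genes with at least 10 CPM in every library of one line and under 0.5 CPM in every library of the other numbered 199 high in MKN1 (1.06% of tested genes) and 45 high in Hs746T (0.240%). With the second number series alone they numbered 338 and 85. Fewer libraries then had to meet the limits, so these counts could not fall and show no effect of the series. The limit of 0.5 CPM was fixed, while residual levels were a share of the level in the other line. Of 2411 genes with at least 100 CPM in MKN1, the smallest level in Hs746T was 0.185% of that in MKN1. Genes of higher level, such as PNMA5 and HR described below, could thus miss the limit. The counts and the highest genes named here depend on it. Within these limits, the highest on the MKN1 side was SHCBP1, with 68.9, 75 and 80.8 CPM in MKN1 and 0.107, 0.28 and 0.495 CPM in Hs746T. ADGRB1, SHISA2, BMP7, SLC17A9, ELFN1, KRT5, KIAA1211L, SHANK3 and TNNT3 followed, with medians of 60.3 to 73.9 CPM in MKN1 and log2FC of -7.93 to -9.18 over these 10 genes. The highest on the Hs746T side were IFI44L, GABRQ, PRRX1, PTPN22, LDOC1, MPDZ, GPAT2, TWIST2, BICC1 and CLEC11A, with 7.14 to 9.06. MPDZ, a scaffold protein of tight junctions, had 0, 0.0466 and 0.397 CPM in MKN1 and 49.7, 56.1 and 69.6 CPM in Hs746T. Of the 199 genes, 24 had at least 10 CPM in every MKN7 and NCI-N87 library and 37 were under 0.5 CPM in all of them, and of the 45 genes these numbers were 0 and 24.

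Among well expressed protein-coding genes whose ranges did not overlap, 1281 were called higher and 1082 lower. The 10 with the largest rise were MPDZ, COL1A2, NRK, SPART, LDOC1, GPAT2, GABRQ, PRRX1, IFI44L and PCDH11X, with log2FC of 8.48 to 9.06. PCDH11X has a near-identical copy and is uncertain. NRK, a kinase gene on chromosome X, had 0.0272, 0.306 and 1.13 CPM in MKN1 and 173, 189.6 and 211 CPM in Hs746T. The 10 with the largest fall were SHISA2, S100A9, HR, C16orf54, IRX2, FNDC10, KRT5, MAGEA4, PNMA5 and NKX6-3, with -8.70 to -9.18. PNMA5 stood at 840.2, 1033 and 1227 CPM in MKN1 and at 0.319, 1.63 and 7.32 CPM in Hs746T. HR, a corepressor known from hair follicles, had 107, 191 and 297 CPM in MKN1 and 0.0852, 0.231 and 0.94 CPM in Hs746T. None of these ranges overlapped. Which genes were among the 10, and in which order, can move with the residual levels described above. In the second number series alone, KRT5 had -11.68 and NKX6-3 -13.48.

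Position along the chromosomes was described next, since MET stood out. All 10 tested genes within 0.5 Mb of the ends of MET were called higher, with a median log2FC of 4.59, and within 1 Mb 13 of 14 were. From 1 to 2 Mb away, 2 of 3 were called higher, with a median of 2.54. From 2 to 5 Mb away, 4 of 15 were called higher and 3 lower, with a median of 0.43. Among all tested genes, 22.6% were called higher and 25.5% lower. CAV1, the gene of caveolin 1, lay 111 kb from MET and had 479, 625 and 836 CPM in MKN1 and 6331, 6774 and 9679 CPM in Hs746T (log2FC 3.57, SE 0.16). CAPZA2 and ST7, on the other side, had 3.19 and 3.66. TES and TFEC had higher values of 5.83 and 7.23, from medians of 0.445 and 0.14 CPM in MKN1. CTTNBP2, 912 kb away, was the nearest gene not called, with 0.93, and LSM8, 1386 kb away, had -0.53. On the side of CAV1, MDFIC and FOXP2, 1653 and 1979 kb away, were called higher with 2.54 and 3.47. Farther out on that side, GPR85 and DOCK4 were called higher with 5.15 and 4.22. Reads of ST7-AS1 and of other genes that overlap on opposite strands may not be told apart, since the strand setting of the counting is not stated.

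**Figure D4:**
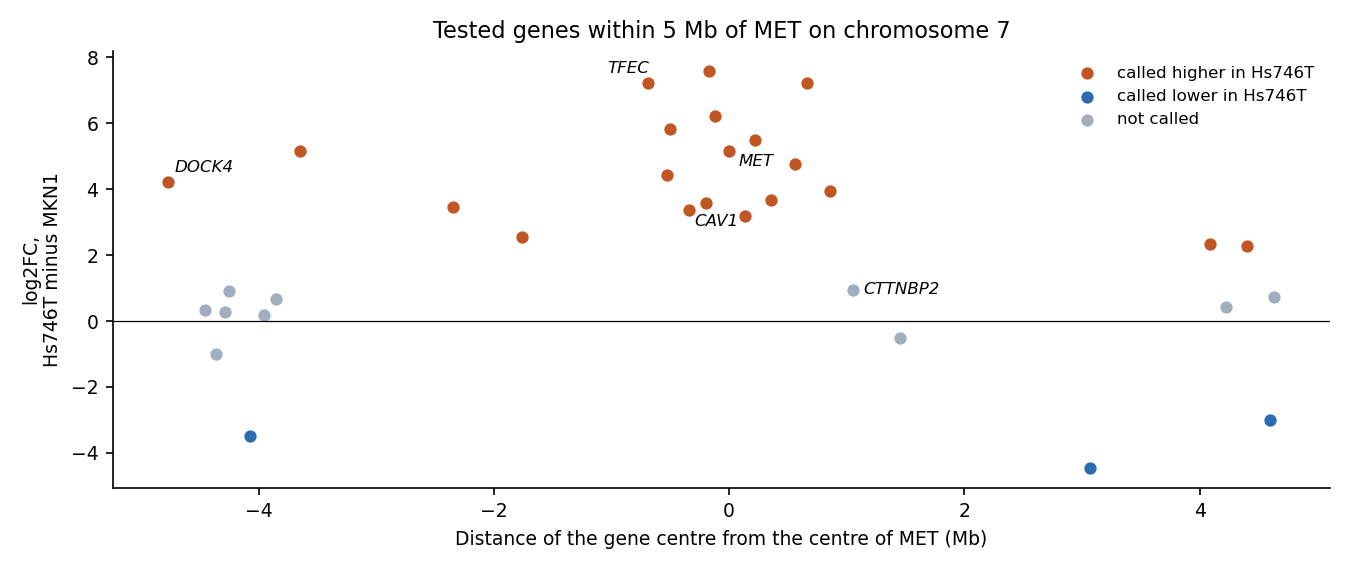
Log2FC of the tested genes within 5 Mb of MET, Hs746T minus MKN1, against the distance of the gene centre from the centre of MET in Mb (orange: called higher, blue: called lower, grey: not called). All genes drawn between TFEC and CTTNBP2 were called higher, and CTTNBP2 was the nearest one that was not.

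Among 13951 runs of 15 neighbouring tested protein-coding genes, the one from TMEM168 to CFTR, which holds MET, had the highest median log2FC, 3.66, with 13 of 15 genes called higher. It also ranked highest with runs of 11 and of 21 genes, at 3.96 and 3.47. On chromosome 10, the 15 genes from COL17A1 to SMC3 were all called higher, DUSP5 among them, with a median of 2.47. On chromosome 5, the 15 genes from PDCD6 to TERT were all called lower, with a median of -4.87. TERT, the catalytic subunit of telomerase, had 4.38, 6.22 and 7.81 CPM in MKN1 and 0, 0 and 0.033 CPM in Hs746T, the latter under the level of 3 counts. A run on chromosome 17 with keratin genes and JUP had a median of -5.24, and one on chromosome 21 that holds TRPM2 and ITGB2 had -5.26. The lowest run, of histone genes on chromosome 6, is uncertain because these genes share reads and lie at low levels.

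The last question was whether the difference between the lines depended on the time of harvest. At 4 h, 9356 of 19225 genes (48.7%) were called and at 24 h 9133 (47.5%). Both times shared 7968 called genes, 85.2% of those at 4 h and 87.2% of those at 24 h, and 7959 of them had the same direction. CSF2 and BMF were among the 9 that changed direction, CSF2 with -1.04 at 4 h and 2.24 at 24 h and BMF with 1.50 and -1.17. The difference itself differed between the times by more than 1 on the log2 scale in 561 genes (2.92%, adjusted p below 0.05 for the interaction in edgeR). It moved toward Hs746T from 4 h to 24 h in 156 genes (0.811%) and toward MKN1 in 405 (2.11%). Scaling by library size alone shifted the median interaction from -0.05 to -0.20 and gave 112 and 693. Of the 561 genes, 508 changed more between 4 h and 24 h in MKN1 and 53 in Hs746T. Leaving out replicate 2 in all groups left 0 genes (edgeR, 2714 at an unadjusted p below 0.05), with interactions of 2.02 for FOSL1, 3.20 for CXCL8 and -3.23 for ID3. Leaving out replicate 1 or 3 left 262 and 143. Single libraries moved it as well, to 273 without the MKN1 24 h replicate 1, 349 without the Hs746T 4 h replicate 2, 365 without the MKN1 4 h replicate 1 and 373 without the Hs746T 24 h replicate 2.

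Of the list members tested here, 62 of 846 were called in the interaction, against 2.92% of all tested genes. Among them were 5 of 14 motility genes, 5 of 29 MAPK targets and 8 of 32 genes on the TGF-beta and BMP list. The study chose the motility genes on comparisons with the untreated MKN1 4 h libraries that enter this interaction. Their count is therefore no independent evidence. The MAPK target FOSL1 went from 411 ± 18.9 to 90.5 ± 30.9 CPM in MKN1 and from 1268 ± 344 to 1153 ± 296 CPM in Hs746T (mean ± SD, n = 3), an interaction of 2.05 (SE 0.36, adjusted p = 0.0065). CXCL8 went from 11.9 ± 0.812 to 0.895 ± 0.196 CPM in MKN1 and from 10.5 ± 1.89 to 6.61 ± 1.77 CPM in Hs746T (3.07, SE 0.30). HMGA2, ETS1, ITGA2, LAMA3 and CCND1 had interactions of 2.03, 1.74, 1.78, 1.98 and 1.35. The log2FC of CXCL8 was -0.18 at 4 h and 2.89 at 24 h. FOS, the partner of JUN in AP-1, went the other way, with -1.67. MET and VIM had smaller interactions of 1.13 and 1.15, with MET at 179 ± 7.92 and 87.4 ± 14.2 CPM in MKN1. With scaling by library size they were 0.97 and 0.99, under the limit. With all 24 untreated libraries in the fit, VIM (1.14, adjusted p = 0.451, edgeR) and FOS (-1.67, adjusted p = 0.0559) were not called.

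The BMP target genes of the ID family had interactions below 0. ID3 went from 16.4 ± 2.94 to 69.3 ± 17.4 CPM in MKN1 and from 16.9 ± 2.18 to 5.53 ± 1.62 CPM in Hs746T, an interaction of -3.67 (SE 0.31, adjusted p = 1.83e-04). Its log2FC was 0.04 at 4 h and -3.63 at 24 h. ID2, ID1, SMAD7 and SMAD6 had -2.82, -1.88, -1.38 and -1.34. TNFSF10, the death ligand TRAIL, had 1.78 ± 0.546 and 22.2 ± 10.8 CPM in MKN1 and 1.59 ± 0.189 and 1.76 ± 0.236 CPM in Hs746T (-3.50, SE 0.49, adjusted p = 0.00256). SLC7A11, SEMA6D and CLDN7 had -2.13, -2.40 and -2.25.

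**Figure D5:**
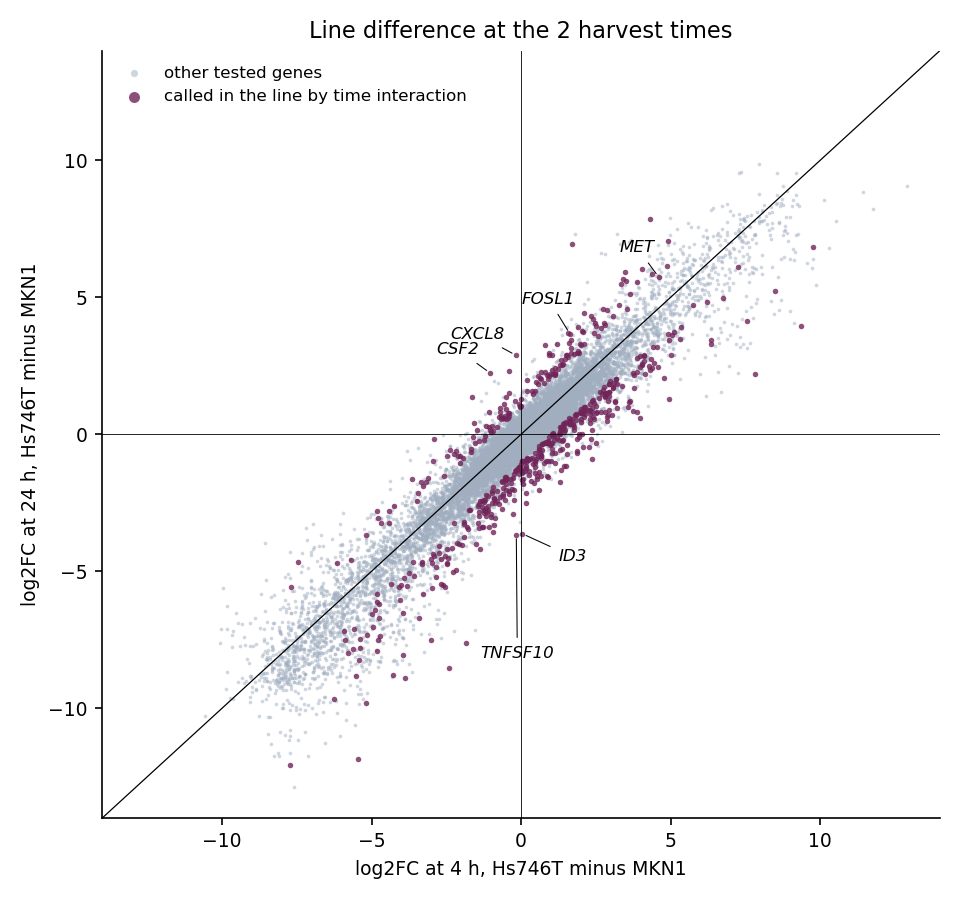
Log2FC at 24 h against log2FC at 4 h, Hs746T minus MKN1, with 1 point per tested gene (purple: called in the interaction of line and time, grey: other genes, line: equal values). Most genes lie along the line, CXCL8, CSF2 and FOSL1 above it and ID3 and TNFSF10 below.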

How the data were processed

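RNA of untreated cells was sequenced in 12 libraries, 3 replicates for each of 2 lines and 2 times. The authors deposited counts per gene and sample for 65217 gene identifiers. Per the submitters' processing notes, reads were trimmed with Trim Galore and aligned with STAR to hg38. The counter, its strand setting and its annotation are not given in the sources used here. Symbols and positions came from GENCODE 29 (GRCh38).

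Library totals were 25832557 to 60661089 counts, which sets the level of 3 counts at 0.0495 to 0.116 CPM. Genes were filtered with filterByExpr (minimum count 10, total 15), scaled by TMM and fitted with edgeR 4.0.16 (R 4.3.3), by the quasi-likelihood test with Benjamini-Hochberg adjustment, line and time as terms. Times and the interaction came from a fit of the 4 group means. A call needed an adjusted p below 0.05 and a log2FC beyond 1 in size, as in the study. The fit of the line was tested on simulated counts with 200 genes changed. Of genes changed by 1.5 on the log2 scale, 90.8% were called, and of those changed by 3, 100%. With so few changed genes this does not test the scaling for lines in which 48.0% of genes were called. CPM are means or ranges after TMM scaling. DESeq2 1.42.0, another scaling and filter, leaving out libraries, sums over the times and other terms served as alternatives, and the second number series alone was chosen after seeing the data. The members and gene lists were chosen with earlier results of these data known.

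Within a list, the members with the largest log2FC in the direction of most calls and the defining members were named, and other members that are named were chosen after their values were seen. Named besides were the 10 largest rises and falls among protein-coding genes with a mean log2 CPM above 5 in the higher line and no overlap, the 10 highest genes each way that were near absent in one line, the genes around MET, and list members in the interaction. Promoter sequences came from a RefSeq table (GRCh38.p14). Figures were drawn with matplotlib 3.10.9 in Python 3.11.15.

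Replicate numbers are shared by the groups. Same-numbered libraries of the 2 lines did not deviate together (r from -0.07 to 0.08), so the numbers did not pair the lines. Within a line, the 4 h and 24 h libraries of one number did in 5 of 6 pairs (r over 0.1, range 0.10 to 0.60). Pairs of other numbers within a line had r from -0.53 to 0.30, with 2 of 12 over 0.1. The 6 libraries of a line are therefore not fully independent. Some genes are not reported here.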

Additional observations from a re-analysis of the deposited data

Results flagged for a closer look

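In 3 genes, 1 of the 6 libraries of a line lay apart from the other 5 by more than the Dixon limit for 6 values, which chance exceeds in about 1 of 20 groups. The levels of 33 genes in both lines were examined, 66 groups in all, so about 3.3 groups would pass by chance. ERRFI1 was lowest, at 347 CPM, in the Hs746T 24 h replicate 1. HNF4G was highest, at 25.8 CPM, in the same library. NKX6-3 was highest, at 0.313 CPM, in the Hs746T 4 h replicate 2, the library with the highest residual level of genes of the other line.

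The difference between the lines itself differed between 4 h and 24 h in 561 genes by the interaction test of edgeR. Most of these are not listed here, among them list members such as FLT1 (2.80) and OVOL2 (-2.68). The 21 genes examined under every setting follow. Those with a difference that moved toward Hs746T were CSF2 with 3.28, CXCL8 with 3.07, FOSL1 with 2.05, HMGA2 with 2.03, LAMA3 with 1.98, ITGA2 with 1.78, ETS1 with 1.74, CCND1 with 1.35, VIM with 1.15 and MET with 1.13 on the log2 scale. Those with one that moved toward MKN1 were ID3 with -3.67, TNFSF10 with -3.50, ID2 with -2.82, BMF with -2.68, SEMA6D with -2.40, CLDN7 with -2.25, SLC7A11 with -2.13, ID1 with -1.88, FOS with -1.67, SMAD7 with -1.38 and SMAD6 with -1.34. In 508 of the 561 genes the change from 4 h to 24 h was larger in MKN1.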

How the results depend on the processing

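Over 27 alternative settings, the log2FC of 208 named genes kept its direction and its side of the limits in 5478 comparisons, lost the call in 29, gained it in 13 and changed its sign in 8, and these changes of call or sign fell on 18 genes. The sign changed only for genes that were not called, EGFR (0.15), AREG (0.09) and LAMA3 (0.47) in the 24 h libraries alone, HBEGF (0.00), AXL (-0.16) and SMAD3 (-0.15) in the 4 h libraries alone, and DUSP6 (-0.01) and NOTCH1 (-0.12) in the second number series alone. S100A2, FGFR1 and GRHL2 lost their call under several settings, and CTTNBP2 gained one with 1.05 to 1.23. In the 4 h libraries alone AREG (-1.50) and LAMA3 (-1.54) were called lower, and CDH1 (-0.94) was not. With at least 10 counts in every library, which removes genes that are near absent in one line and left 13541 genes, 4781 were called (2465 higher, 2316 lower), at 4 h 4934 (2596 and 2338) and at 24 h 4779 (2360 and 2419). Leaving out libraries gave 8938 to 9390 called genes (4149 to 4421 higher, 4715 to 4998 lower), at 4 h 8990 to 9637 and at 24 h 9001 to 9470. For the interaction it gave 0 to 643 genes (0 to 207 toward Hs746T, 0 to 440 toward MKN1), and the cause was not tested. DESeq2 gave 746 there, and scaling by library size 805, with 693 of them toward MKN1 and 13.9% in place of 27.8% toward Hs746T. All 21 named interactions lost their call without replicate 2. BMF lost it in 12 settings, ITGA2 in 7, MET and VIM in 6 each, FOS in 3. At least 20 CPM in one line left 85 and 24 genes near absent in the other, in place of 199 and 45. The replicate numbers did not pair the lines. A block for that number, shared by both lines, gave 9345 called genes (9609 at 4 h, 9461 at 24 h) and 692 in the interaction. Such a block does not model the pairing of the times within a line, and the interaction test took no account of that pairing. Sums of the 4 h and 24 h libraries gave 9704 called genes, 4617 higher and 5087 lower. Depth limits levels under 0.0495 to 0.116 CPM, and residual levels differed by number series.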

Other observations

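Among the 24 genes that were under 0.5 CPM in every Hs746T library and at least 10 CPM in every library of MKN1, MKN7 and NCI-N87 were HOOK1, CAMSAP3 and SLPI. With all 24 untreated libraries scaled together, 26 genes met these limits. HOOK1, which links endosomes to microtubules, had medians of 26.4 CPM in MKN1, 92.4 CPM in MKN7 and 112 CPM in NCI-N87 and 0.136 CPM in Hs746T. CAMSAP3, which holds the minus ends of microtubules in epithelial cells, had 24.8, 53.8 and 60.3 CPM and 0.327 CPM in Hs746T. SLPI, a secreted inhibitor of leukocyte proteases, had 38, 34.4 and 43.7 CPM and 0.327 CPM in Hs746T. These genes were chosen for this pattern, and no test was made.

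Chromosomes differed in their share of called genes. Of 138 tested protein-coding genes on chromosome 21, 46.4% were called lower and 5.8% higher, with a median log2FC of -0.84. On chromosome 10, 43.8% were called higher and 18.2% lower, with a median of 0.81. Chromosomes 21 and 10 were named because they had the lowest and the highest median of those examined, and no test was made. Among all tested genes, of any type, 22.6% were called higher and 25.5% lower. DNA copy number was not measured.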
